A study of Solanum lycopersicum with 6 samples.

Results

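Enzymes of 3 families that remove superoxide and hydrogen peroxide were followed in tomato leaf: catalases, superoxide dismutases (SODs) and ascorbate peroxidases. The genes were taken by identifier from a fixed list, which also gave each its family, and all 10 were found once among the 35768 gene models of the deposited table. They are 3 catalases (Solyc12g094620, Solyc02g082760 and Solyc04g082460), 4 SODs and 3 ascorbate peroxidases (Solyc06g005160, Solyc06g005150 and Solyc11g018550). The SODs are Solyc11g066390 and Solyc01g067740, which use copper and zinc, Solyc06g048410, which uses iron, and Solyc06g049080, which uses manganese. All 10 passed the filter on low counts. By the chromosome number in their identifiers they lie on 6 chromosomes, and 4 of them, including the consecutively numbered ascorbate peroxidases Solyc06g005150 and Solyc06g005160, lie on chromosome 6.

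SODs convert superoxide, which arises where electrons leak to oxygen in chloroplasts and mitochondria, into hydrogen peroxide and oxygen. Catalase splits hydrogen peroxide into water and oxygen in peroxisomes, where photorespiration of illuminated leaves releases much of it. Ascorbate peroxidase reduces hydrogen peroxide with electrons from ascorbate, which other enzymes of the ascorbate-glutathione cycle then regenerate.

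The study set out to locate translation start sites in tomato (Solanum lycopersicum) leaf and to measure mRNA, with 2 libraries each of LTM footprints, CHX footprints and mRNA. A footprint is a short stretch of mRNA that survives RNase because a ribosome covers it. LTM libraries came from leaves treated with LTM, an abbreviation that the labels leave unexplained and that in this field stands for the initiation inhibitor lactimidomycin, and the extract then received puromycin. CHX libraries came from extracts in buffer with cycloheximide at 100 µg/ml, which arrests elongating ribosomes, and mRNA libraries from rRNA-depleted total RNA of an aliquot of that extract. No difference in genotype between the groups is named in the labels, and growth was at 28 °C with 12-h days. The labels give the leaf age as 3 weeks in one field and 2 weeks in another, name no cultivar and leave the origin of the replicates unsaid. Each p-value therefore rests on the spread between replicate libraries that may share plants or an extract, pooled over the 3 kinds and moderated by the spread of other models.

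Libraries held 18240140 to 48704200 counts. The 10 genes took 0.590% and 0.491% of the LTM counts, 0.755% and 0.670% of the CHX counts, and 0.326% and 0.398% of the mRNA counts. Leaf identity was checked on identifiers known from general knowledge: the 3 Rubisco small subunit models averaged from 8312 to 46490 CPM (counts scaled to a library total of 1000000) over the 3 kinds of library. The fruit polygalacturonase model had 0 counts in all 6 libraries, and the fruit model E8 did not exceed 1.23 CPM. The gene levels below are CPM on library totals. They are not divided by length, so levels of different genes were not compared. In such bulk leaf libraries, fewer cells that use a gene and less RNA per cell cannot be told apart.

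Elongating-ribosome footprints were high relative to mRNA for most of these enzymes. This ratio asks how many ribosomes a gene carried for its amount of mRNA. In CHX against mRNA, 8 of the 10 genes were higher: all 3 catalases, all 3 ascorbate peroxidases, and the iron and manganese SODs. Neither Cu/Zn SOD passed the test, and for both that depended on the setting. No gene was lower, and 0 were lower at an unadjusted p under 0.05 in edgeR's quasi-likelihood test or by DESeq2's adjusted p. Of all 20806 models tested, 22.5% were higher and 27.4% lower. The median log2 fold change was 1.03 over the 10 genes and -0.02 over all models tested. Higher calls were also more common among well-expressed models: of the 7103 models that averaged 10 CPM or more across all 6 libraries, 40.4% were higher and 17.1% lower, and 7 of the 8 listed genes in that class were higher. The median log2 fold change over the models of that class was 0.34. On library totals, both CHX libraries lay above both mRNA libraries for 9 genes and below them for 1, against 34.7% and 39.3% of all models. Only coding-region reads were counted for footprints, whereas mRNA counts span the transcript, so the ratio also varies with the untranslated share of a transcript.

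LTM footprints were lower than CHX footprints for all 3 catalases and for the iron and manganese SODs, and higher for the Cu/Zn SOD Solyc01g067740. None of the 3 ascorbate peroxidases passed the test, although their values were also below 0, and a difference between the families was not tested. Both kinds of footprint were summed over the coding region, so those at start sites were not told apart from those along it. Any dependence of this ratio on coding length was not tested, since lengths are not at hand. Among all models, 22.4% were higher and 19.6% lower, and the median log2 fold change was -0.60 over the 10 genes and -0.01 over all models. In the class of at least 10 CPM, 34.1% of the models were lower and 18.9% higher, with a median of -0.28. Of the 8 listed genes there 4 were lower and 1 higher. On library totals, both LTM libraries lay below both CHX libraries for 5 genes and above them for 1, against 22.3% and 46.8% of all models. These counts depend on how libraries are scaled. With total counts in place of TMM factors (edgeR's scaling to the bulk of the models), which shifts the log2 values of all models by a median of 0.29, 1 gene was lower and 1 higher, against 5.90% of all models lower and 27.9% higher.

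LTM footprints against mRNA gave 5 genes higher and 1 lower, where 25.5% of all models were higher and 27.4% lower. The genes higher were the 3 ascorbate peroxidases, the catalase Solyc04g082460 and the Cu/Zn SOD Solyc01g067740. The gene lower was the other Cu/Zn SOD, Solyc11g066390. The median log2 fold change was 0.43 over the 10 genes and 0.02 over all models. In the class of at least 10 CPM, 4 of the 8 listed genes were higher, where 30.3% of the models were higher and 23.3% lower, with a median of 0.09. On library totals, both LTM libraries lay above both mRNA libraries for 9 genes and below them for 1, against 48.2% and 29.0% of all models. The mRNA in this comparison came from the CHX extract, not from the leaves that received LTM. The 3 comparisons share libraries and so are not independent of each other. The plot of fold changes shows them side by side.

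**Figure D1:**
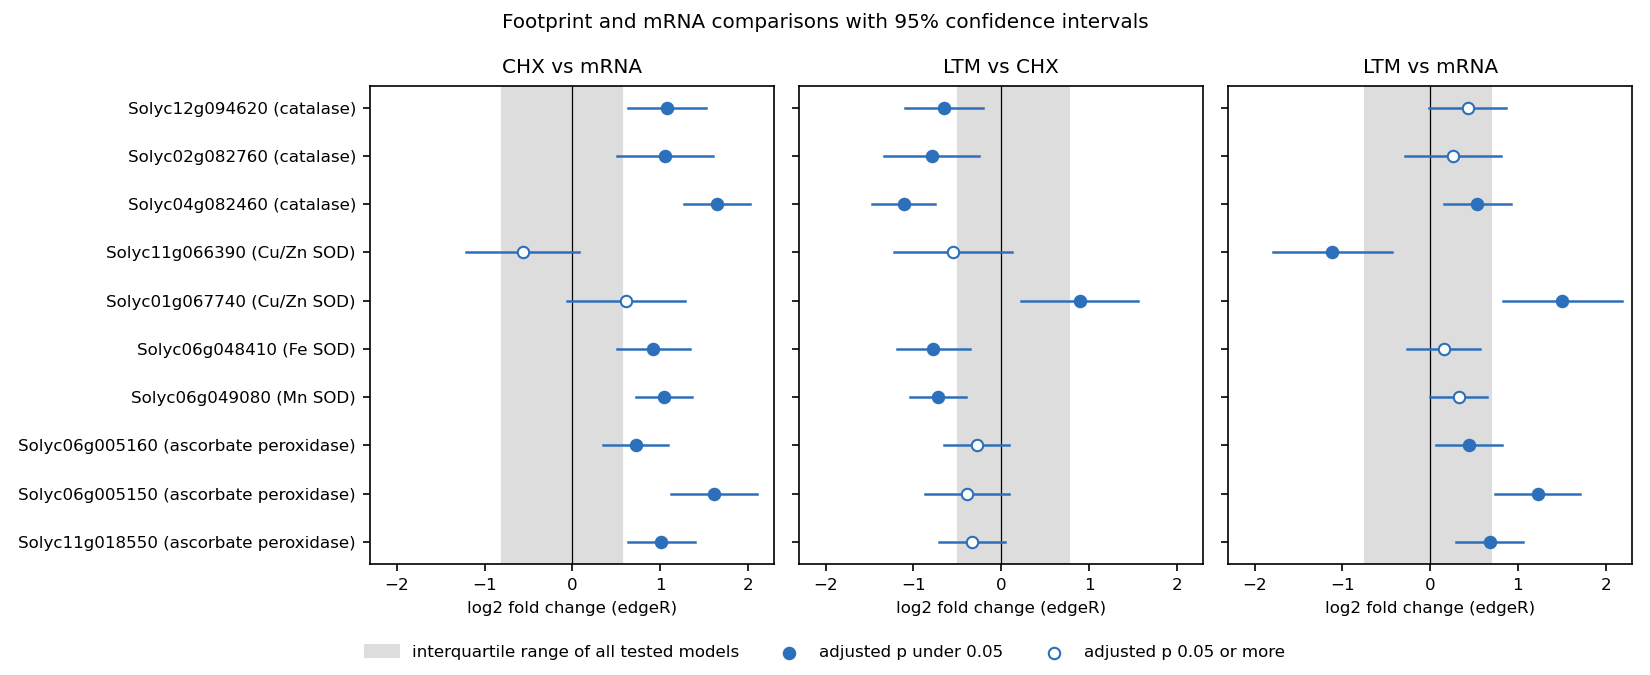
Log2 fold change (x axis, edgeR) of each of the 10 genes (y axis) in CHX against mRNA, LTM against CHX and LTM against mRNA. Points are estimates and lines 95% confidence intervals, filled points have an adjusted p under 0.05, and the grey band is the interquartile range of all 20806 models tested. In CHX against mRNA 8 genes lie filled to the right of 0, and in LTM against CHX 5 lie filled to its left.

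Among the catalases, Solyc02g082760 had 3046 and 2138 CPM in the LTM replicates, 4153 and 3135 CPM in CHX, and 1709 and 1857 CPM in mRNA. On library totals both CHX libraries lay above both LTM libraries, and both LTM libraries above both mRNA libraries. The footprint replicates of one kind differed widely. Its footprints in CHX were 2.07-fold as high as its mRNA (log2 1.05, SE 0.24, edgeR adjusted p = 0.00796). That call was lost without CHX replicate 1 (edgeR adjusted p = 0.0532) or mRNA replicate 2 (0.0540), in a range from 0.000115 to 0.678 over all settings. In LTM against CHX its log2 fold change was -0.79 (SE 0.24, edgeR adjusted p = 0.0289), and in LTM against mRNA it was 0.26 (SE 0.23, edgeR adjusted p = 0.383). With total counts the LTM against mRNA value was 0.54 (edgeR adjusted p = 0.0826), so the order of these 2 kinds depends on the scaling.

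Solyc12g094620, the second catalase, had 618 and 519 CPM in LTM, 808 and 643 CPM in CHX, and 334 and 363 CPM in mRNA. The order of the kinds was the same, again without overlap. CHX footprints were 2.11-fold as high as mRNA (log2 1.08, SE 0.19, edgeR adjusted p = 0.00297), LTM was lower than CHX at -0.65 on the log2 scale (SE 0.19, edgeR adjusted p = 0.0276), and LTM against mRNA gave 0.43 (SE 0.19, edgeR adjusted p = 0.0945). With total counts that last value was 0.70 and passed (edgeR adjusted p = 0.0184, range 0.0184 to 1). Both of these catalases lost the LTM against CHX call without LTM replicate 2, CHX replicate 1 or mRNA replicate 2. Their edgeR adjusted p then ran from 0.0617 to 0.174 for Solyc02g082760 and from 0.0655 to 0.173 for Solyc12g094620, and over all settings from 0.00205 to 1 and from 0.00427 to 1. With total counts the values were -0.49 and -0.35, and neither passed (edgeR adjusted p = 0.145 for Solyc02g082760 and 0.243 for Solyc12g094620).

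Solyc04g082460 had 7.29 CPM in each LTM library, 13.1 and 12.7 CPM in CHX, and 4.23 and 4.08 CPM in mRNA. Its replicates lay close together and the kinds did not overlap. The counts behind these levels were 133 and 284 in LTM, 638 and 608 in CHX, and 105 and 124 in mRNA. Its CHX footprints were 3.13-fold as high as its mRNA (log2 1.65, SE 0.16, edgeR adjusted p = 0.000238), a ratio above that of 96.4% of the models tested. LTM was lower than CHX at -1.11 on the log2 scale (SE 0.16, edgeR adjusted p = 0.00112), and of the genes lower there it alone still passed with total counts. It was higher in LTM than in mRNA by 0.54 (SE 0.16, edgeR adjusted p = 0.0265). That last call was lost without LTM replicate 1, LTM replicate 2 or mRNA replicate 2 (edgeR adjusted p = 0.0503, 0.0916 and 0.125), with a range from 0.00447 to 1 over all settings.

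**Figure D2:**
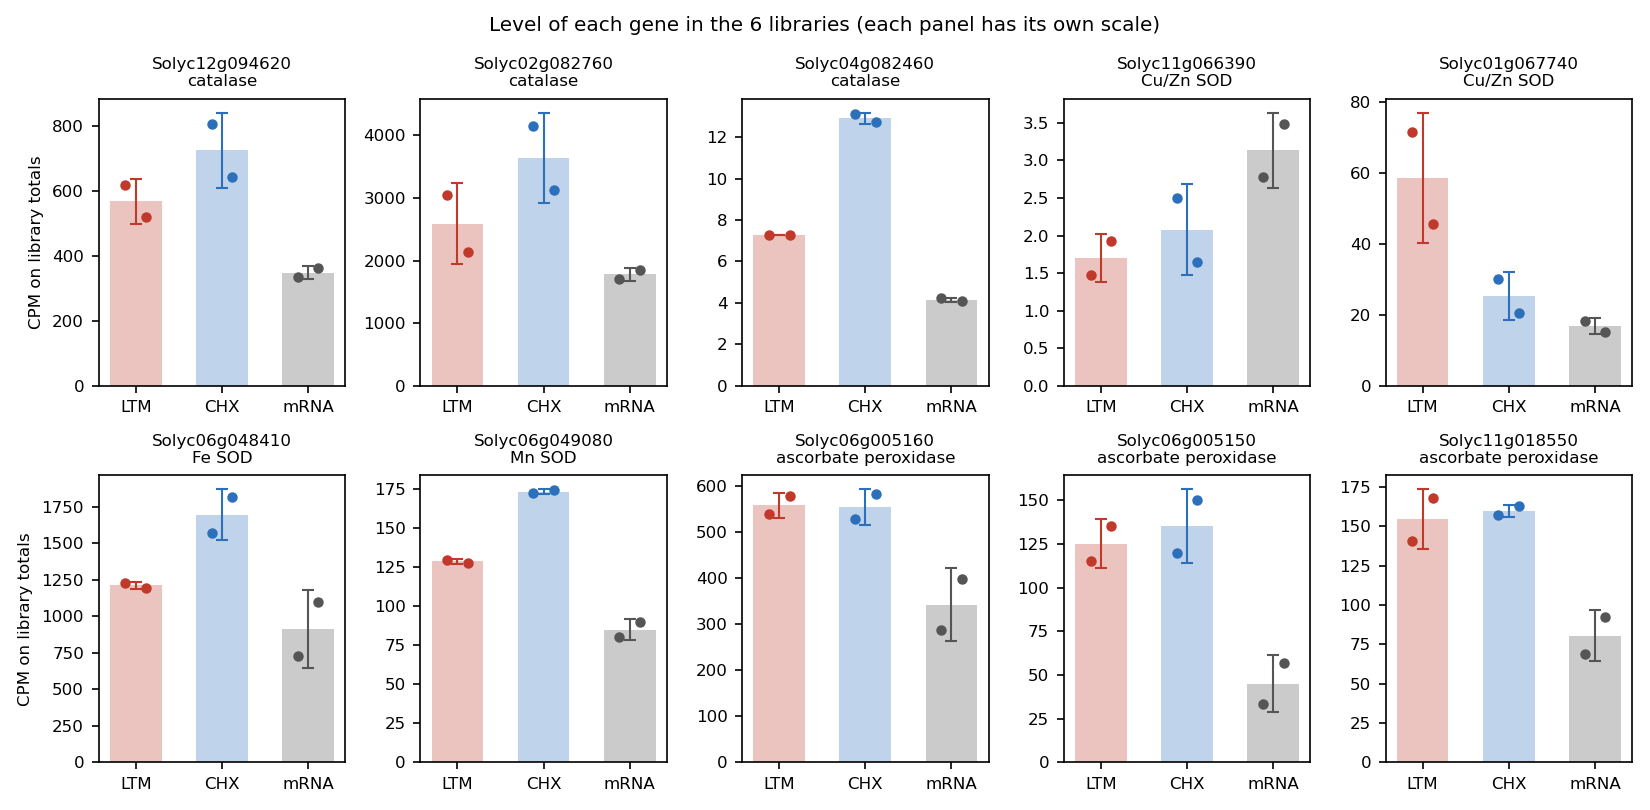
Level of each gene (y axis, CPM on library totals, each panel with its own scale) in LTM, CHX and mRNA libraries. Points are the 2 libraries of a kind, bars their mean and error bars 1 SD. The catalases and the iron and manganese SODs are highest in CHX, and the 2 Cu/Zn SODs run in opposite directions. Without TMM factors, as here, the ascorbate peroxidases have LTM and CHX points at like heights above mRNA.

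The 2 Cu/Zn SODs went opposite ways against mRNA. Solyc01g067740 had 71.8 and 45.8 CPM in LTM, 30.3 and 20.7 CPM in CHX, and 18.4 and 15.2 CPM in mRNA. The means were 58.8 ± 18.4, 25.5 ± 6.76 and 16.8 ± 2.27 CPM (SD, n = 2 each), so the kinds were ordered without overlap although replicates were far apart. It was the only listed gene higher in LTM than in CHX, by 1.86-fold (log2 0.90, SE 0.29, edgeR adjusted p = 0.0381). That call was lost without LTM replicate 1 (edgeR adjusted p = 0.188) or CHX replicate 2 (0.181), and the adjusted p ran from 0.000173 to 1 over all settings. LTM was 2.84-fold as high as mRNA (log2 1.51, SE 0.29, edgeR adjusted p = 0.00351), and CHX against mRNA gave 0.61 (95% interval -0.06 to 1.28, edgeR adjusted p = 0.115). It passed as higher there with no filter (edgeR adjusted p = 0.0428) and without CHX replicate 2 (0.0494), in a range from 0.00207 to 1 over all settings.

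Solyc11g066390 was scarce, with 27 and 75 counts in LTM, 122 and 79 in CHX, and 69 and 106 in mRNA. These are 1.48 and 1.92 CPM in LTM, 2.50 and 1.65 CPM in CHX, and 2.78 and 3.49 CPM in mRNA. Both mRNA libraries lay above all 4 footprint libraries, and the 2 kinds of footprint overlapped. It was the only listed gene called lower in a comparison with mRNA, at -1.11 on the log2 scale in LTM (SE 0.29, edgeR adjusted p = 0.0140). That call was lost without LTM replicate 1 (edgeR adjusted p = 0.0566) or mRNA replicate 2 (0.0793), in a range from 0.00314 to 0.440 over all settings. CHX against mRNA gave -0.56 (95% interval -1.21 to 0.08, edgeR adjusted p = 0.126). It passed as lower without CHX replicate 1 (edgeR adjusted p = 0.0389), in a range from 0.0299 to 1 over all settings. LTM against CHX gave -0.55 (SE 0.29, edgeR adjusted p = 0.163), and passed as lower without CHX replicate 2 (edgeR adjusted p = 0.0478, range 0.0478 to 1).

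The iron SOD Solyc06g048410 had 1227 and 1194 CPM in LTM, 1571 and 1818 CPM in CHX, and 724 and 1100.1 CPM in mRNA. The mRNA replicates stood far apart, yet on library totals the kinds did not overlap. CHX was 1.90-fold as high as mRNA (log2 0.92, SE 0.18, edgeR adjusted p = 0.00418), and LTM was lower than CHX at -0.77 on the log2 scale (SE 0.18, edgeR adjusted p = 0.0105). The LTM against CHX call missed the threshold without CHX replicate 2 (edgeR adjusted p = 0.0519) and with total counts (0.145), in a range from 0.000124 to 1. LTM against mRNA gave 0.15 with the TMM factors (95% interval -0.26 to 0.56, edgeR adjusted p = 0.499) and 0.41 with total counts (edgeR adjusted p = 0.175). The order of LTM and mRNA seen on library totals thus depends on the scaling.

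The manganese SOD Solyc06g049080 had the steadiest footprint levels of the SODs, at 129.5 and 128 CPM in LTM, 172 and 174 CPM in CHX, and 80.1 and 89.8 CPM in mRNA. CHX was 2.06-fold as high as mRNA (log2 1.04, SE 0.14, edgeR adjusted p = 0.000910). LTM was lower than CHX at -0.72 on the log2 scale (SE 0.14, edgeR adjusted p = 0.00491), and this held without any single library but not with total counts (edgeR adjusted p = 0.116, range 2.71e-06 to 1). LTM against mRNA gave 0.32 (SE 0.14, edgeR adjusted p = 0.0833), and with total counts 0.60, which passed (edgeR adjusted p = 0.0242, range 0.0242 to 1), as it did in DESeq2's test (adjusted p = 0.0317).

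All 3 ascorbate peroxidases were higher than mRNA in CHX and in LTM, though Solyc06g005160 by only 1.36-fold in LTM. Solyc06g005150 had 116 and 135 CPM in LTM, 120.1 and 150.2 CPM in CHX, and 33.6 and 56.7 CPM in mRNA. On library totals the footprint kinds overlapped, and each footprint library lay above both mRNA libraries. CHX was 3.07-fold (log2 1.62, SE 0.21, edgeR adjusted p = 0.000817) and LTM 2.34-fold as high as mRNA (log2 1.22, SE 0.21, edgeR adjusted p = 0.00179). Its CHX against mRNA ratio exceeded that of 96.3% of the models tested, and with Solyc04g082460 it was one of the 2 listed genes whose ratio passed a test against a 2-fold minimum.

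Solyc06g005160, which carries the next locus number, had 539 and 578 CPM in LTM, 528 and 583 CPM in CHX, and 287 and 399 CPM in mRNA. Its mean levels in LTM and CHX were nearly equal, at 558 ± 27.5 and 555 ± 38.5 CPM (SD, n = 2 each), and the fitted LTM against CHX value of -0.28 (95% interval -0.65 to 0.09, edgeR adjusted p = 0.196) includes the TMM factors. With total counts it was 0.0078 (edgeR adjusted p = 0.989, range 0.0905 to 1). CHX was 1.65-fold as high as mRNA (log2 0.72, SE 0.16, edgeR adjusted p = 0.00769), in a range from 3.44e-05 to 1 over all settings. That call was lost without mRNA replicate 1 and against a 2-fold minimum. It was also lost with totals that leave out the 20 most abundant models (log2 0.44, edgeR adjusted p = 0.0672). Requiring at least 10 CPM in 2 libraries ended it too (log2 0.45, edgeR adjusted p = 0.0527). LTM against mRNA gave 0.44 (SE 0.16, edgeR adjusted p = 0.0484), and passed in 6 of 17 alternative settings. The libraries whose removal ended it were LTM replicate 2, both CHX and both mRNA replicates, with edgeR adjusted p from 0.0619 to 0.283, in a range from 0.0100 to 1 over all settings.

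Solyc11g018550 had 141 and 168 CPM in LTM, 157 and 163 CPM in CHX, and 69.1 and 92.2 CPM in mRNA. As in the other two, LTM and CHX overlapped on library totals and both lay above mRNA. CHX was 2.02-fold (log2 1.01, SE 0.16, edgeR adjusted p = 0.00199) and LTM 1.60-fold as high as mRNA (log2 0.68, SE 0.16, edgeR adjusted p = 0.00945). Without mRNA replicate 1 the LTM call was lost (edgeR adjusted p = 0.0837, range 0.000398 to 1). In LTM against CHX the values were -0.34 for this gene and -0.39 for Solyc06g005150 (95% intervals -0.71 to 0.04 and -0.87 to 0.08, edgeR adjusted p = 0.133 and 0.160). These values include the TMM factors. With total counts they were -0.05 and -0.11 (edgeR adjusted p = 0.892 and 0.783), so how near LTM lies to CHX depends on the scaling.

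Ratios of counts between 2 genes of a family within one library do not depend on how libraries are scaled. With 2 libraries against 2, an exact permutation test cannot give a p below 0.333, so these ratios are described without a test. The 12 pairs within families reuse the same 10 genes.

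Of the consecutive ascorbate peroxidases, Solyc06g005160 had 4.67 and 4.28 counts for each count of Solyc06g005150 in LTM, 4.40 and 3.88 in CHX, and 8.54 and 7.04 in mRNA. The LTM and CHX libraries overlapped, and all 4 lay below both mRNA libraries. The share of ascorbate peroxidase counts held by Solyc06g005150 was 14.9% ± 0.567 in LTM and 15.8% ± 1.31 in CHX, against 9.48% ± 1.22 in mRNA (SD, n = 2 each). Reads that fit both of these related genes may have been split or dropped by the counting, which the sources used here do not describe, and the difference between the regions counted touches this ratio as well.

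Of the catalases, Solyc12g094620 had 0.203 and 0.243 counts for each count of Solyc02g082760 in LTM, 0.194 and 0.205 in CHX, and 0.196 in each mRNA library. Both LTM libraries lay above both mRNA libraries, and CHX overlapped each of the other kinds. In contrast, Solyc02g082760 had 418 and 293 counts for each of Solyc04g082460 in LTM, 317 and 247 in CHX, and 404 and 455 in mRNA. CHX lay below mRNA without overlap, and LTM overlapped both.

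Of the Cu/Zn SODs, Solyc11g066390 had 0.0206 and 0.0420 counts for each count of Solyc01g067740 in LTM, 0.0828 and 0.0797 in CHX, and 0.151 and 0.229 in mRNA. No 2 kinds of library overlapped. Solyc01g067740 had 0.554 and 0.359 counts for each count of the manganese SOD in LTM, 0.176 and 0.119 in CHX, and 0.230 and 0.169 in mRNA. Both LTM libraries lay above the other 4. It held 4.18% ± 1.18 of the SOD counts in LTM, 1.37% ± 0.479 in CHX and 1.74% ± 0.687 in mRNA (SD, n = 2 each). The iron and manganese SODs kept overlapping ratios, at 9.47 and 9.36 in LTM, 9.12 and 10.4 in CHX, and 9.05 and 12.3 in mRNA.

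**Figure D3:**
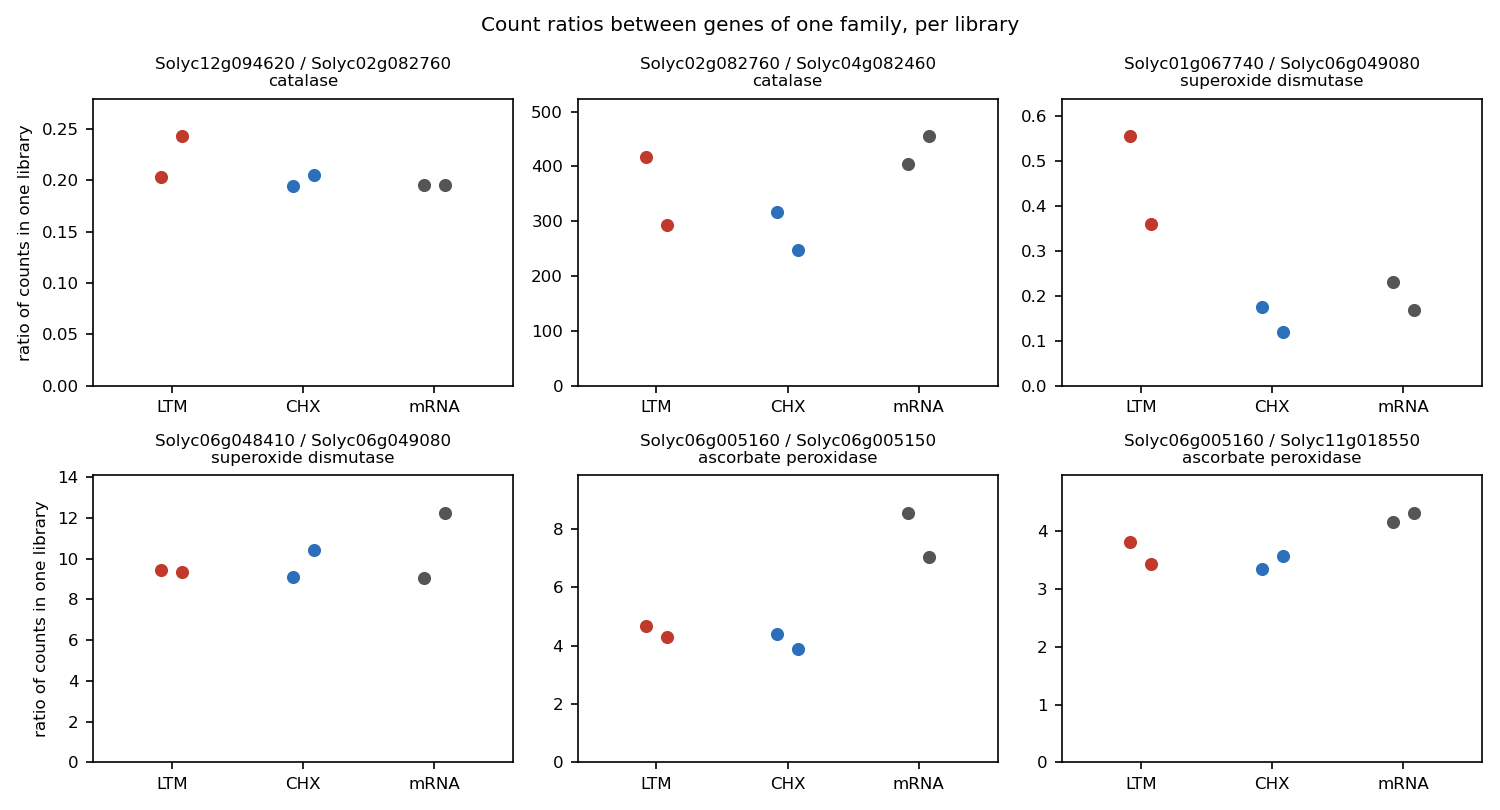
Ratio of the counts of 2 genes of a family within each library (y axis, no unit) for 6 of the 12 pairs, with LTM, CHX and mRNA on the x axis and 1 point per library. Solyc06g005160 over Solyc06g005150 lies at 3.88 to 4.67 in the footprint libraries and at 7.04 and 8.54 in mRNA, and Solyc01g067740 over Solyc06g049080 is highest in LTM.

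Differences between replicates ran the same way in the 3 ascorbate peroxidases. In CPM, these genes were higher in replicate 2 than in replicate 1 in all 3 kinds of library, as were 23.6% of all models tested. The median model was itself lower in replicate 1 of mRNA and CHX, with a log2 ratio of replicate 1 over replicate 2 of 0.08 in LTM, -0.09 in CHX and -0.25 in mRNA. Solyc06g005150 had ratios of -0.22 in LTM, -0.32 in CHX and -0.75 in mRNA. The Cu/Zn SOD Solyc01g067740 was higher in replicate 1 throughout, at 0.65 in LTM, 0.55 in CHX and 0.28 in mRNA. The catalase Solyc04g082460 was also higher there in all 3 kinds, at 0.0013 in LTM, 0.04 in CHX and 0.05 in mRNA, and 7.83% of all models shared this order. The catalases Solyc02g082760 and Solyc12g094620 were higher in replicate 1 of both footprint kinds, by 0.51 and 0.25 in LTM and 0.41 and 0.33 in CHX, and gave -0.12 each in mRNA. The summed catalase counts were 4.61 and 3.02 times the summed ascorbate peroxidase counts in LTM replicates 1 and 2, 6.17 and 4.23 times in CHX, and 5.25 and 4.06 times in mRNA. These sums are not divided by length, so the ratios were compared between libraries only and do not rank the families.

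**Figure D4:**
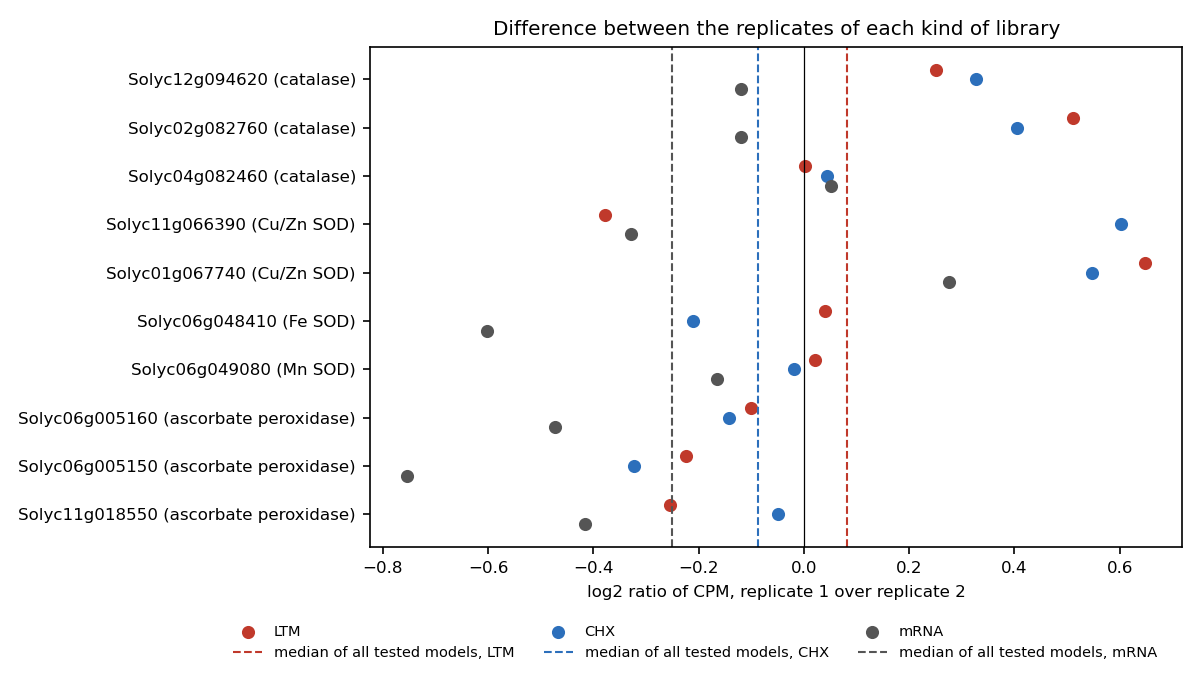
Log2 ratio of CPM of replicate 1 over replicate 2 (x axis) for each gene (y axis) in LTM, CHX and mRNA libraries. Dashed lines mark the median of all models tested for each kind. The ascorbate peroxidases lie left of 0 in all 3 kinds, Solyc01g067740 lies right of it, and the catalases Solyc02g082760 and Solyc12g094620 lie right of it in LTM and CHX.

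Related enzymes were counted from a list of 17 further identifiers, placed in their families from general knowledge: other SODs and ascorbate peroxidases, and the monodehydroascorbate, dehydroascorbate and glutathione reductases that regenerate ascorbate. In CHX against mRNA, 13 of the 17 were higher (22.5% of all models) and 0 lower (27.4%) in edgeR's test, with 0 lower at an unadjusted p under 0.05, and the median log2 fold change was 0.84. In LTM against CHX, 9 were lower (19.6% of all models) and 0 higher (22.4%), with 0 higher at an unadjusted p under 0.05, and the median was -0.47. In LTM against mRNA, 6 of the 17 were higher, near the 25.5% of all models, and 1 was lower (27.4% of all models). The median was 0.39. Solyc06g048420, which carries the locus number after that of the iron SOD and was named after its values were seen, had the highest CHX against mRNA value of that list, at a log2 fold change of 2.59 (edgeR adjusted p = 4.99e-05).

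Likeness of pattern was measured from Solyc02g082760, which had the highest mean CPM of the 10. The measure was the Euclidean distance of log2 CPM, here with TMM factors, centred on each gene's mean over the 6 libraries. The nearest of 7095 models at a mean of 10 CPM or more were Solyc12g096550 (distance 0.179) and Solyc02g080440 (0.191), and 2711 models lay within a distance of 1. On library totals, Solyc12g096550 had 255 and 185 CPM in LTM, 342 and 296 CPM in CHX, and 144 and 149 CPM in mRNA. The second catalase Solyc12g094620 lay at 0.273, with 24 models nearer, and the ascorbate peroxidase Solyc06g005160 at 0.813. The Cu/Zn SODs were farthest, at 1.78 for Solyc01g067740 and 1.86 for Solyc11g066390.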

How the data were processed

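The authors deposited whole-number read counts for each gene model, not normalized; per the file headers, mRNA reads were summed over transcripts and footprints over coding regions only. Per the labels' protocols, fragments from 26 to 32 nt were gel-purified for the footprints and all libraries were read as 75-bp single-end reads. The sources used here do not give the aligner, the counting tool, the build or how multiply matching reads were treated. The identifiers could not be paired with the gene table at hand (assembly SLM_r2.1), in which 0 entries carry one of them, so coordinates, lengths and sequences are not given.

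Groups and replicate numbers came from the sample titles. R 4.3.3 with edgeR 4.0.16 was used, and limma 3.58.1 and DESeq2 1.42.0 served as alternatives. Filtering by filterByExpr kept 20806 of 35768 models. Quasi-likelihood models (glmQLFit, glmQLFTest) were fitted to all 6 libraries with TMM factors (0.863 to 1.16) and 1 coefficient per kind of library, which leaves 3 residual degrees of freedom. Tests were two-sided, p-values were adjusted by Benjamini-Hochberg over the 20806 models, and the threshold was 0.05. The spread of each gene was drawn towards that of other models, which gave the tests of the listed genes 7.72 degrees of freedom. The SE of a log2 fold change was derived from the quasi-likelihood F. Log2 CPM for distances used the TMM factors and a prior count of 2. The procedure was run on simulated counts in which few models were changed, equally often up and down. Such a run cannot show how it behaves when many models differ and calls depend on the scaling. Alternatives changed the scaling, the filter, the test or the libraries fitted. DESeq2's test used its own size factors, and TMM factors were recomputed after each filter.

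The named genes are the 10 listed ones and, by rule, the 2 models nearest in pattern to the listed gene with the most CPM. Solyc06g048420, from the related list, was named after its values were seen. The genes and lists were chosen with earlier results of these data known, and the class of at least 10 CPM was added after the data were seen. A count of 0 allows 3 counts, which is 0.0616 to 0.164 CPM, for counting error only. Replicate pairs differed by more than sampling noise, with chi-square per degree of freedom of 48.3 in LTM, 47.1 in CHX and 52.8 in mRNA.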

Additional observations from a re-analysis of the deposited data

How the results depend on the processing

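Of 507 alternative log2 fold changes of the listed genes, 434 kept their direction and side of the threshold, 59 no longer passed, 12 newly passed and 2 changed sign. The sign changes were of values that passed in neither fit: Solyc06g005160 in LTM against CHX (0.0078 with total counts) and Solyc06g048410 in LTM against mRNA (from -0.023 without mRNA replicate 1 to 0.40 without mRNA replicate 2). With total counts, 1 gene was lower in LTM than in CHX, against 5.9% of all models. Leaving the 20 most abundant models out of the totals moved all models by a median of -0.28 in CHX against mRNA. In LTM against CHX the median move was 0.24. Of the listed genes, 1 was then lower in CHX than in mRNA and 7 higher, and 2 were lower in LTM than in CHX. Of all models, 35.9% were lower and 12.1% higher in CHX than in mRNA, and 9.54% were lower in LTM than in CHX. With at least 10 CPM required in 2 libraries, Solyc11g066390 was not tested. In that fit 3 genes were lower in LTM than in CHX, against 20.7% of the models kept. In LTM against mRNA 0 were lower (0 at an unadjusted p under 0.05 in edgeR), against 27.6%. This filter also changed the scaling, moving the models kept by a median of -0.27 in CHX against mRNA and 0.20 in LTM against CHX. Against a 2-fold minimum (edgeR glmTreat), 2 genes were higher in CHX than in mRNA, where 2.36% of all models were. In LTM against CHX 0 were higher and 0 lower, against 10.9% and 0.971% of all models. In LTM against mRNA 0 were higher and 0 lower, against 11.5% and 12.4%, and 1 was higher at an unadjusted p under 0.05. A fit to the 2 kinds compared gave 3 genes lower in LTM than in CHX, against 14.6% of all models. Leaving out each library in turn, with a lone library assumed to vary like the others, gave for CHX against mRNA 7 to 9 genes higher and 0 to 1 lower. For LTM against CHX it gave 0 to 1 higher and 3 to 5 lower, and for LTM against mRNA 3 to 4 higher and 0 to 1 lower. The cause was not tested beyond fewer models or libraries in these fits. The labels tie mRNA to aliquots of CHX extracts, but not equal replicate numbers to the same extract. The correlation of their deviations was 0.356 for CHX and mRNA, 0.338 for LTM and CHX and 0.207 for LTM and mRNA. A replicate block gave 9 higher and 0 lower for CHX against mRNA, 1 and 6 for LTM against CHX, and 7 and 1 for LTM against mRNA. Of all models, this block called 27% higher and 30.4% lower, 25.6% and 25.5%, and 29.1% and 30.3%, in the same order. The share of all models called thus also rose under it, to 57.4%, 51.1% and 59.5%, against 49.9%, 41.9% and 52.8% without it. The genes that gained a call were Solyc01g067740 in CHX against mRNA (edgeR adjusted p = 0.00207, range 0.00207 to 1), Solyc06g005150 in LTM against CHX (0.0290, range 0.0290 to 1), and Solyc12g094620 and Solyc06g049080 in LTM against mRNA (0.0264 and 0.0489, ranges 0.0184 to 1 and 0.0242 to 1). Solyc11g066390 had the fewest counts of the listed genes, as few as 27 in a library. Whether depth set the spread of its values was not tested.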
